A study of Mus musculus with 6 samples.

Results

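The Hes and Hey genes encode basic helix-loop-helix proteins of a family of transcriptional repressors. Many of them, though not all, are classical transcriptional targets of Notch signaling. When a ligand of the Jagged or Delta-like family binds a Notch receptor, the intracellular domain of the receptor is released. It joins the DNA-binding protein Rbpj and the Mastermind-like coactivators and switches the target genes on. *Nrarp* is induced by the same complex and encodes an ankyrin repeat protein that limits the pathway by acting on the intracellular domain. In teeth, Notch receptors and Hes genes are known from the enamel organ, mainly from the layers next to the ameloblasts. The 8 genes described here, *Hes1*, *Hes5*, *Hes6*, *Hes7*, *Hey1*, *Hey2*, *Heyl* and *Nrarp*, were taken by name from the 55487 genes of the table and were all found.

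At PN2.5, mandibular first molars of mice were used as the source of dental epithelium for RNA-seq, at the stage when Hertwig's epithelial root sheath starts to form. The control group, Wnt10a fl/fl, and the cKO group, K14-Cre;Wnt10a fl/fl, had 3 libraries each, and each library was a pool of several molars. Both groups carry the floxed *Wnt10a* alleles, and the groups differ by the Cre recombinase. The keratin 14 promoter drives it in the epithelia where that promoter is active, not in the root sheath alone. The values are TPM, a level per transcript length scaled to the same total in each library. They keep no sequencing depth, so depth is unknown, no counting error can be given, and precision rests on 3 libraries a group. Lists of 3 values below follow the replicate numbers 1, 2 and 3 of a group. The deleted gene *Wnt10a* was at 56.0, 51.2 and 57.9 TPM in the control and at 22.7, 21.8 and 32.2 TPM in the cKO libraries, so the labels of all 6 libraries matched their *Wnt10a* level. The epithelial keratins *Krt14* and *Krt5* had means of 2462 and 2703 TPM over the 6 libraries, but the libraries were not epithelium alone. *Col1a1*, a collagen of mesenchymal cells, had a mean of 2280 TPM, and *Dspp*, a marker of odontoblasts, had a mean of 796 TPM. In such bulk samples, fewer cells of a type and less RNA per cell cannot be told apart. The labels number the libraries of a group as bio rep 1, 2 and 3 without saying which animals went into which, and the p-values measure the spread between these pools.

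The promoter windows below show where the letters of an Rbpj site occur around RefSeq starts of these genes. Rbpj is the factor through which Notch acts on its target genes. RefSeq sequence of GRCm38.p6, from 250 bases before to 50 after a gene's start, was matched by symbol for 5 of the 8 genes, *Hes5*, *Hes6*, *Hes7*, *Hey2* and *Nrarp*. *Hes6* had 2 windows, one at its outermost start and one inside the gene, and the others had 1 each. TGGGAA, the core of the Rbpj site, was found on either strand in the windows of 3 of these 5 genes, *Hes5*, *Hes7* and *Hey2*, and in 25.6% of all 32851 windows. CACGTG, a site of the Hes and Hey proteins that reads the same on both strands, was found in the window of *Nrarp*, at -108, and in 7.2% of all windows. CACNAG, the N box bound by Hes proteins, was found in the windows of *Hes7* and *Nrarp*, in the *Hes6* window inside the gene but not in the one at its outermost start, and in 42.5% of all windows. These shares are over windows and the counts over genes, so they are not on the same footing for *Hes6*. The 250 bases before the start are printed 5′ to 3′ on the strand of the gene for *Hes5* and *Hey2*, which hold 2 matches to TGGGAA each, and for *Nrarp*, which holds none. The windows lie at chr4:154960673-154960922 on the forward strand for *Hes5*, at chr10:30842784-30843033 on the reverse strand for *Hey2* and at chr2:25180508-25180757 on the forward strand for *Nrarp*. Capitals mark TGGGAA, its reverse complement TTCCCA, and CACGTG, and the second match of *Hey2*, which begins at -3, runs past the end of the printed bases.
Hes5: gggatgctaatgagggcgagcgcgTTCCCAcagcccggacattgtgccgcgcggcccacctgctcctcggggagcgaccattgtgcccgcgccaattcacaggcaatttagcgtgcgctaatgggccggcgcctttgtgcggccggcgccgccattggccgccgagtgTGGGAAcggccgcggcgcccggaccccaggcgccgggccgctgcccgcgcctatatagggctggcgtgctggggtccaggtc
Hey2: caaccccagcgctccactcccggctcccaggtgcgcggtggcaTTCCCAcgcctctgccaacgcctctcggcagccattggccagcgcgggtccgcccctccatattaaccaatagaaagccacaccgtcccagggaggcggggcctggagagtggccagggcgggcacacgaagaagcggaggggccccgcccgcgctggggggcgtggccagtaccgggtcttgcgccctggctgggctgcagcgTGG
Nrarp: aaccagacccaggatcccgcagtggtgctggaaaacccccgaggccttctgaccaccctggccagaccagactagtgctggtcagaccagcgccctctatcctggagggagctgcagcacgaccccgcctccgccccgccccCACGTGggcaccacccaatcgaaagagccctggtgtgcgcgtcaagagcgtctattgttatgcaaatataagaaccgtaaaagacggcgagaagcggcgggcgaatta
In *Hes5* the match at -226 is on the opposite strand and the match at -82 on the strand of the gene. These matches are letters in a window, and no binding was measured.

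*Hes1*, the most widely expressed Notch target of the family and a gene that keeps progenitor cells from differentiating, was the highest of the 8 genes in both groups. Its level was 48.2 ± 9.14 TPM (SD, n = 3) for control and 54.3 ± 4.37 TPM (SD, n = 3) for cKO. *Nrarp* came next with 26.2 ± 2.08 TPM (SD, n = 3) for control and 27.9 ± 3.34 TPM (SD, n = 3) for cKO. *Hey1* and *Hes6* followed at 18.0 ± 3.78 and 17.8 ± 1.94 TPM (SD, n = 3) in the control, *Heyl* at 11.0 ± 1.80 TPM (SD, n = 3) and *Hey2* at 2.37 ± 0.808 TPM (SD, n = 3). *Hes5*, a gene of neural progenitors, ranged from 0.20 to 1.01 TPM over the 6 libraries, and *Hes7*, a gene of the clock that segments the somites, from 0.19 to 0.57 TPM. The order of the means was the same in both groups except that *Hes5* and *Hes7* changed places. In the control, the ranges over libraries overlapped between the neighbours *Hey1* and *Hes6* and between *Hes7* and *Hes5*, and in the cKO they overlapped between *Nrarp* and *Hey1* as well. The other neighbours in that order were separated in every library. In GRCm38, *Hes1* lies on the forward strand at chr16:30064384-30067796 with 4 exons and *Heyl* on the forward strand at chr4:123233556-123249875 with 5 exons. *Hes6*, at chr1:91411483-91414038 with 3 exons, *Hey1*, at chr3:8663359-8667256 with 5 exons, and *Hey2*, at chr10:30832359-30842801 with 5 exons, lie on the reverse strand. *Hes5*, at chr4:154960923-154962371 with 3 exons, and *Hes7*, at chr11:69120404-69124055 with 4 exons, lie on the forward strand. Exons are those of the longest annotated transcript. Among all 55487 genes, *Hes1* ranked between 1676 and 2357 by level in a library, and *Hey2* between 10605 and 12602.

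**Figure D1:**
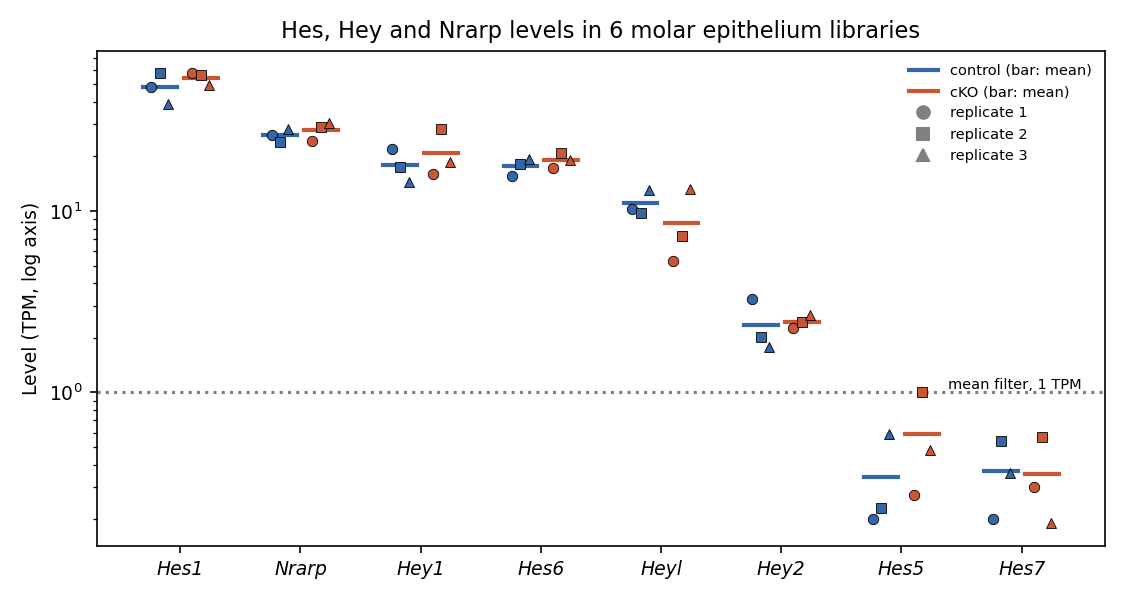
TPM of the 8 genes (log axis) in each of the 3 control (blue) and 3 cKO (red) libraries, with replicate numbers as symbols, bars at the group means and a dotted line at the filter of 1 TPM on the mean. The groups overlap for every gene, *Hes1* lies highest, and *Hes5* and *Hes7* have means below the line.

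Set against each other, the groups overlapped for all 8 genes, and none of the 6 that could be tested met a threshold. A gene was tested with limma on log2(TPM + 1), on which differences of weakly expressed genes come out too small, if its mean over the 6 libraries was at least 1 TPM. *Hes1*, *Hes6*, *Hey1*, *Hey2*, *Heyl* and *Nrarp* passed that filter, and *Hes5* and *Hes7* did not. The criteria of the study were unadjusted p below 0.05 together with means more than 20% apart. By them 0 of the 6 genes were called, beside 4.02% of the 13719 genes tested, with 1.55% called higher and 2.47% called lower. Of the 552 genes called over the whole table, 213 were higher and 339 lower in the cKO, so that 38.6% were higher, a share that was 50.8% after median-ratio scaling and 49.9% after quantile normalization. Single libraries moved it too, to 19.3% without control replicate 3 and to 51.8% without cKO replicate 1. With a Benjamini-Hochberg adjusted p below 0.05 from limma, again 0 of the 6 genes were called, beside 0.0146% of all genes tested. None of the 6 had groups without overlap, beside 9.64% of all genes, 3.51% higher and 6.13% lower in the cKO. The log2 fold change was above 0 for 5 of the 6 genes and below 0 for *Heyl*, with a median of 0.09 beside a median of -0.07 over all genes tested. That median over all genes was 0.0008 after median-ratio scaling, and it ranged from -0.18 without control replicate 3 to 0.02 without control replicate 2. Every adjusted p of these genes from limma was 1.00 after rounding, and the smallest adjusted p in any of the 14 alternative settings was 0.55. The deleted gene *Wnt10a* itself, at a log2 fold change of -1.10, had p of 0.00065 unadjusted and 0.75 adjusted from limma. A high adjusted p here therefore does not show that a gene was unchanged.

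*Hes1* was at 48.2, 57.3 and 39.1 TPM in the control and at 57.5, 56.1 and 49.3 TPM in the cKO libraries. Control replicate 3 was the lowest and cKO replicate 1 the highest, and control replicate 2 lay among the cKO libraries (two-sided exact permutation test, p = 0.4). For *Hes1* the log2 fold change was 0.18 (SE 0.18), with a 95% interval from -0.25 to 0.62 and an unadjusted p of 0.353 from limma. On the scale of the fit, the interval runs from 0.841 to 1.53 times the control.

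*Hes6*, which encodes a relative of Hes1 that antagonizes it in neural cells, was at 15.7, 18.2 and 19.5 TPM in the control and at 17.4, 20.8 and 19.1 TPM in the cKO libraries. The groups lay within one another, apart from the lowest control and the highest cKO library (two-sided exact permutation test, p = 0.5). For *Hes6* the log2 fold change was 0.10 (SE 0.17), with a 95% interval from -0.30 to 0.50 and an unadjusted p of 0.577 from limma. Its standard deviation within groups was lower than that of all but 8.64% of the 2581 tested genes of a like level.

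*Hey1*, best known from endothelial cells and skeletal tissue, was at 22.0, 17.5 and 14.4 TPM in the control and at 16.1, 28.3 and 18.6 TPM in the cKO libraries. A single library, cKO replicate 2, stood above the other 5, which mixed (two-sided exact permutation test, p = 0.6). For *Hey1* the log2 fold change was 0.19 (SE 0.26), with a 95% interval from -0.42 to 0.81 and an unadjusted p of 0.480 from limma. Without cKO replicate 2 it was -0.033. That library also had the lowest share of the enamel matrix gene *Amelx*, 8.65% of its TPM beside 16.5% to 20.6% in the others, and the highest sum over 10 genes of dividing cells, 403 TPM beside 141 to 257 TPM. The part of these differences in the level of *Hey1* was not tested.

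*Hey2*, a gene of the developing heart and arteries, was at 3.29, 2.02 and 1.79 TPM in the control and at 2.27, 2.43 and 2.67 TPM in the cKO libraries. The 3 cKO libraries lay close together between the highest control library and the other two (two-sided exact permutation test, p = 0.9). For *Hey2* the log2 fold change was 0.06 (SE 0.26), with a 95% interval from -0.54 to 0.67 and an unadjusted p of 0.815 from limma. Its sign turned in 4 of the 14 alternative settings, so no direction can be given.

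*Heyl*, known from the smooth muscle cells and pericytes of vessels and from muscle, was the only tested gene of the 8 with a lower mean in the cKO. *Heyl* was at 10.3, 9.70 and 13.1 TPM in the control and at 5.28, 7.29 and 13.2 TPM in the cKO libraries. cKO replicates 1 and 2 lay below every control library, whereas cKO replicate 3 was the highest of all 6 (two-sided exact permutation test, p = 0.5). For *Heyl* the log2 fold change was -0.40 (SE 0.32), with a 95% interval from -1.15 to 0.34 and an unadjusted p of 0.245 from limma. The value rested on single libraries. Without cKO replicate 3 the log2 fold change was -0.73, with p of 0.0274 unadjusted and 0.68 adjusted from limma, which meets the criteria of the study. Without cKO replicate 1 it was -0.14 (limma, unadjusted p 0.663). Over the 14 alternative settings its adjusted p ranged from 0.55 to 1.00.

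*Nrarp* was at 26.4, 24.0 and 28.2 TPM in the control and at 24.2, 29.0 and 30.6 TPM in the cKO libraries. The 6 libraries differed little, and cKO replicate 1 was near the lowest value of the control (two-sided exact permutation test, p = 0.4). For *Nrarp* the log2 fold change was 0.09 (SE 0.17), with a 95% interval from -0.31 to 0.48 and an unadjusted p of 0.622 from limma. *Nrarp* has 1 exon and lies on the forward strand of chromosome 2 of GRCm38 from 25180758 to 25183339, where the annotation also has *Gm38287* on the reverse strand. Whether the counting used strand is not given in the sources used here, so reads of the pair may not be separable.

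*Hes5* was at 0.20, 0.23 and 0.59 TPM in the control and at 0.27, 1.01 and 0.48 TPM in the cKO libraries. *Hes7* was at 0.20, 0.54 and 0.36 TPM in the control and at 0.30, 0.57 and 0.19 TPM in the cKO libraries. Neither group stood apart for either gene (two-sided exact permutation tests, p = 0.5 for *Hes5* and p = 0.9 for *Hes7*). Both genes are overlapped on the opposite strand, *Hes5* by *Gm20421* and *Hes7* by *9130213A22Rik*. Summed over the 7 Hes and Hey genes, the level was 98.0 ± 8.49 TPM (SD, n = 3) for control and 106 ± 9.11 TPM (SD, n = 3) for cKO (two-sided exact permutation test, p = 0.5). *Hes1* made up 48.9% ± 5.21 (SD, n = 3) of this sum for control and 51.3% ± 5.86 (SD, n = 3) for cKO, again with overlap (two-sided exact permutation test, p = 0.7).

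None of the other relatives of the family met a threshold. *Bhlhe40* and *Bhlhe41*, repressors of the same protein class that act in the circadian clock, had log2 fold changes of -0.21 and -0.42, with limma p of 0.328 and 0.128 before adjustment. The groups did not overlap for *Bhlhe41*, at 3.69, 3.71 and 3.96 TPM in the control and 2.81, 1.80 and 3.30 TPM in the cKO libraries. Over all genes tested, 6.13% lay lower in the cKO without overlap. *Hes2*, *Hes3* and *Helt* never exceeded 0.07 TPM and were not tested. Hes proteins recruit corepressors of the Tle family to the genes they bind, and of 9 genes for these and other partners 0 were called in either direction. In that list, the median log2 fold change was -0.21, beside -0.07 over all genes tested, and with the length and GC correction it was -0.083 beside -0.06. *Tle5*, which encodes a short Tle protein without the full repressor domains, was the most abundant of the list at 223 TPM, and *Tle3* had the smallest p, 0.104 from limma, at a log2 fold change of -0.39.

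Upstream of the repressors, most receptor genes were lower in the cKO libraries. Of the 4 Notch receptors, 3 met the criteria of the study, *Notch1*, *Notch2* and *Notch3*, with log2 fold changes of -0.90, -0.87 and -0.73, and none had an adjusted p below 0.05. The median over the 4 receptors was -0.80, and -0.50 once transcript length and GC content were corrected for, when *Notch1*, *Notch2* and *Notch3* had -0.58, -0.55 and -0.45. The sum over the 4 receptors was 108, 113 and 81.8 TPM in the control and 44.2, 53.4 and 67.8 TPM in the cKO libraries (two-sided exact permutation test, p = 0.1, below which a comparison of 3 with 3 libraries cannot go). Vessel cells also express Notch receptors, and in the same libraries all 14 endothelial markers had log2 fold changes below 0, with 4 called lower. Their part in the receptor levels was not tested. Of the 6 tested ligands of the Jagged, Delta-like and Dlk families, 0 were called, and their median log2 fold change was -0.18, or -0.089 with that correction. *Jag2* was the most abundant ligand, at 101 TPM, and had the smallest p, 0.097 from limma. Of 18 genes for nuclear partners of the pathway, 2 were called, both lower, beside 2.47% of all genes tested. These were *Ctbp2*, a corepressor, with a log2 fold change of -1.16, and *Spen*, a corepressor that binds Rbpj, with -0.76, which became -0.40 with the length and GC correction. For *Rbpj* itself limma gave -0.26 with an unadjusted p of 0.323. Of 10 tested genes from a list of other reported Notch targets, 0 were called. In that list *Cdkn1a*, a cell cycle inhibitor, was the most abundant at 440 TPM, and *Cd44*, a cell surface receptor, had the smallest p, 0.0789 from limma.

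**Figure D2:**
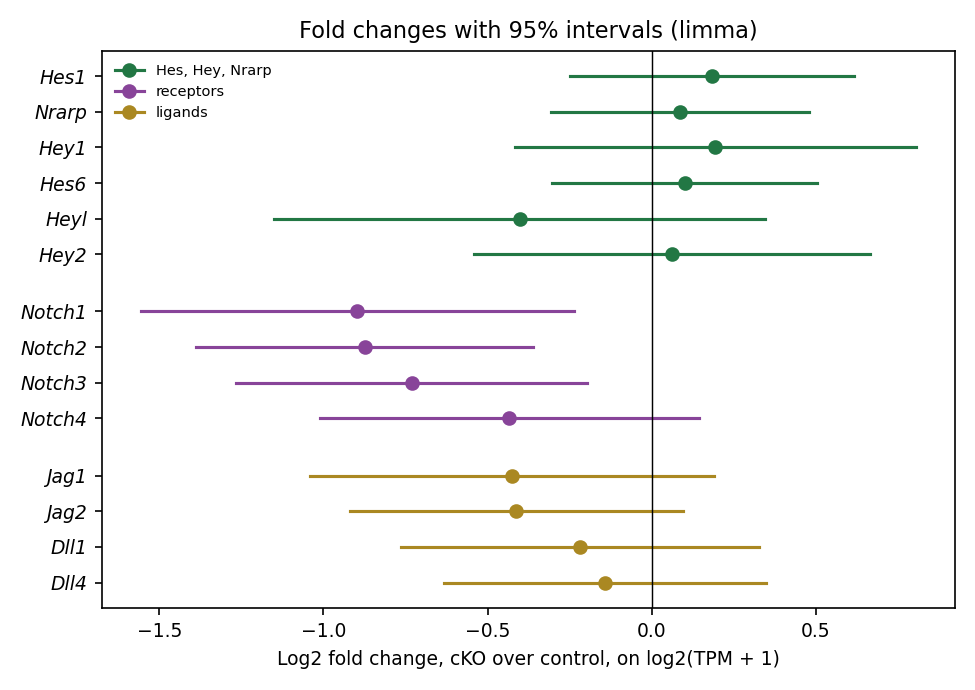
Log2 fold change of cKO over control (points) with 95% intervals from limma (lines). Drawn are the 6 tested Hes, Hey and Nrarp genes (green), the 4 Notch receptors (purple) and 4 ligands (yellow), *Jag1*, *Jag2*, *Dll1* and *Dll4*. The other tested ligands, *Dlk1* and *Dlk2*, had log2 fold changes above 0, at 0.09 and 0.37, and are not drawn. All 6 green intervals span 0, whereas those of *Notch1*, *Notch2* and *Notch3* lie below 0.

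The levels can also be set side by side with that of *Notch2*, the most abundant receptor, within each library. *Notch2* was chosen after its lower level in the cKO had been seen, and the difference of each log2 ratio between the groups is by construction the log2 fold change of the gene minus that of *Notch2*, so the ratios are a description without a test and add nothing to the values above. The log2 ratio of *Hes1* to *Notch2* was -0.66, -0.48 and -0.51 in the control and 0.84, 0.63 and 0.06 in the cKO libraries, so that *Hes1* was below *Notch2* in every control library and above it in every cKO library. The difference of the group means was 1.06, most of which is the -0.87 of *Notch2*. With each library corrected for length and GC content it was 0.62, *Hes1* lay below *Notch2* in cKO replicate 3 as well, and the groups overlapped. The corrected groups also overlapped for *Heyl*, at a difference of 0.30. They did not for *Hes6*, *Hey1*, *Hey2* and *Nrarp*, at 0.57, 0.73, 0.52 and 0.64. Before correction, *Notch2* was at 76.7, 80.3 and 55.9 TPM in the control and at 31.7, 35.9 and 47.3 TPM in the cKO libraries. These groups do not overlap, so a gene at a constant level would separate in this ratio too. The share of all genes that separate in it is not given here, so the separation is no result about these genes.

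**Figure D3:**
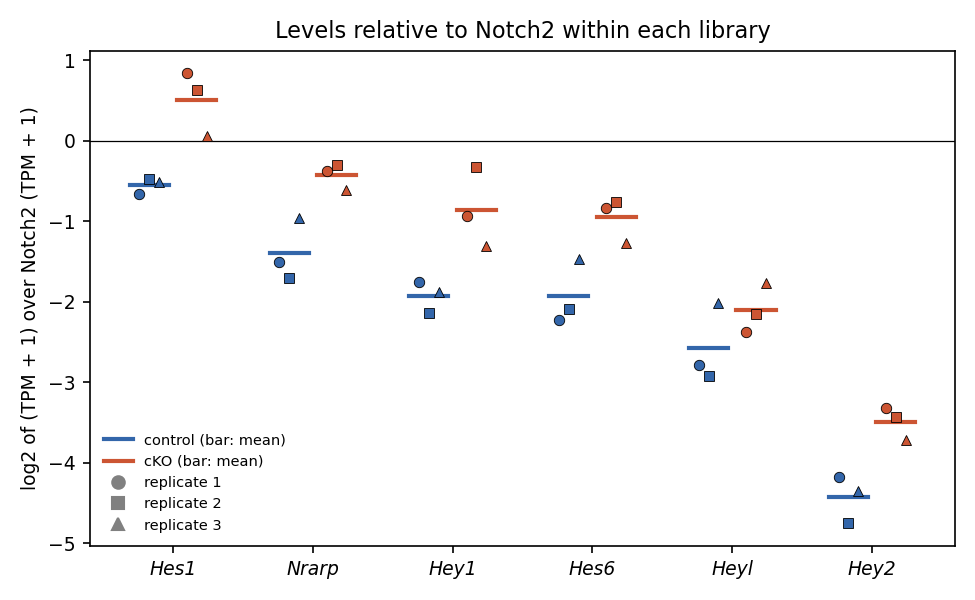
Log2 ratio of each tested gene to *Notch2*, computed on TPM + 1 within each control (blue) and cKO (red) library, with replicate numbers as symbols and bars at group means. The cKO libraries lie above the control libraries for *Hes1*, *Nrarp*, *Hey1*, *Hes6* and *Hey2*. The groups overlap for *Heyl* and, with the length and GC correction (not drawn), for *Hes1*. A gene at a constant level would also separate, since the *Notch2* levels of the groups do not overlap.

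Transcript length differed between these genes and moved with the fold change. The longest transcripts of *Hes1* and *Hes6* have 1468 and 1573 bases, those of *Hey1*, *Hey2* and *Nrarp* 2423, 2550 and 2582 bases, that of *Heyl* 4537 bases and that of *Notch2* 10500 bases. Over protein-coding genes in 10 groups by length, the median log2 fold change fell from 0.17 in the shortest group to -0.30 in the longest. Among protein-coding genes of like length, *Hes1* stood at the percentile 71.7 by log2 fold change, *Hey1* at 85.1 and *Heyl* at 11.2. When length and GC content of the transcripts were corrected for, library by library, the log2 fold changes were 0.07 for *Hes1*, 0.02 for *Hes6*, 0.17 for *Hey1*, -0.030 for *Hey2*, -0.25 for *Heyl* and 0.09 for *Nrarp*. With the same correction *Notch2* had a log2 fold change of -0.55.

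**Figure D4:**
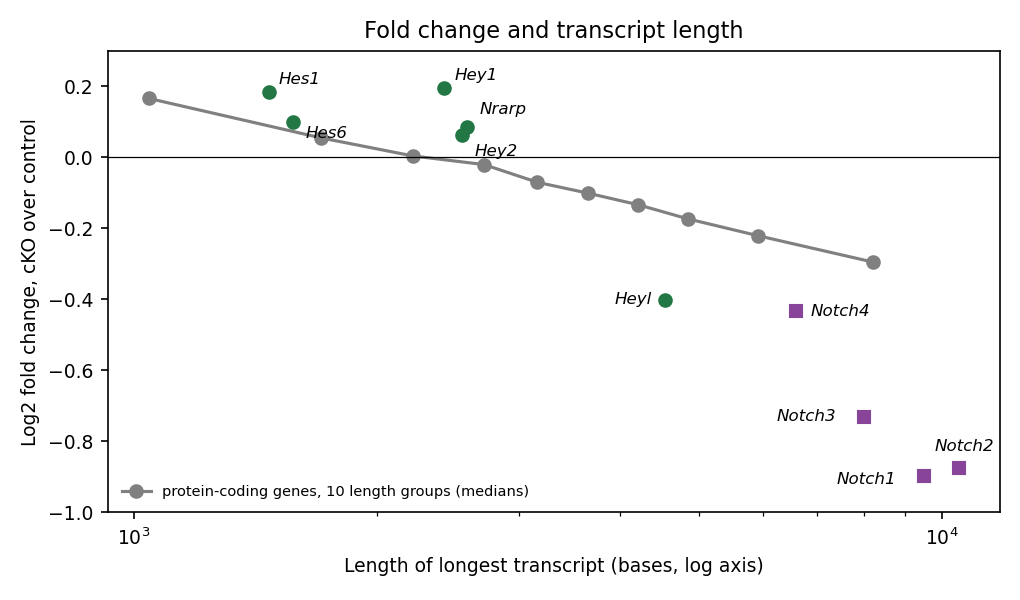
Log2 fold change against the length of the longest transcript (log axis) for the 6 tested Hes, Hey and Nrarp genes (green) and the 4 Notch receptors (purple), with the medians of 10 length groups of protein-coding genes (grey line). The median falls from 0.17 to -0.30 with length, and *Heyl* and the receptors, which have the longest transcripts of those drawn, lie below it.

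Vessels also express the Hey genes, and markers of their cells were measured in the same libraries. Of 14 endothelial markers, all were tested, all had a log2 fold change below 0, and 4 were called lower, *Cdh5*, *Flt1*, *Tek* and *Erg*, with log2 fold changes from -0.77 to -0.54. Over all genes tested, 60.3% had a log2 fold change below 0 and 2.47% were called lower. With the length and GC correction *Cdh5*, *Flt1*, *Tek* and *Erg* had -0.67, -0.42, -0.46 and -0.58. The median over the 14 markers went from -0.44 to -0.39 with it. The sum of the 14 markers was 229, 172 and 229 TPM in the control and 144, 155 and 181 TPM in the cKO libraries, with *Egfl7* the most abundant at 51.8 TPM, and the sums of the groups overlapped. Of 10 markers of vessel smooth muscle and pericytes, 8 were tested and 0 called, and the smallest p was that of *Pdgfrb*, 0.0897 from limma. Their sum was 252, 165 and 178 TPM in the control and 161, 182 and 170 TPM in the cKO libraries, with *Acta2* the most abundant at 58.0 TPM. No defining marker of either list was at 0 in every library. The part of these cells in the levels of *Hey1*, *Hey2* and *Heyl* was not tested. In skeletal muscle, another source of *Heyl*, the defining genes *Pax7* and *Myod1* were listed at 0 in every library, and all 12 muscle markers together summed to at most 2.59 TPM, with *Des* the most abundant at 0.473 TPM.

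For neural cells, which use *Hes5* and *Hes6*, 6 of 12 markers were tested and 0 called. Their sum was 189, 183 and 185 TPM in the control and 159, 211 and 234 TPM in the cKO libraries, of which *Tubb3*, the most abundant, gave 107 TPM. *Sox10* and *Elavl3*, which define glia and neurons, were at or below 0.14 TPM in every library. Of 12 epithelial markers, 1 was called lower, beside 2.47% of all genes tested, the desmosome gene *Dsp*, with a log2 fold change of -0.69, or -0.40 with the length and GC correction, and *Krt5* was the most abundant. Of 6 tested genes of the stratum intermedium, a layer rich in Notch receptors, 0 were called. *Alpl* was the most abundant, at 260 TPM, and *Nectin1* had the lowest p, 0.14 from limma. Of 8 ameloblast markers 0 were called, although all 8 had log2 fold changes below 0, beside 60.3% of all genes tested. Their sum was 207100, 200700 and 239900 TPM in the control and 191600, 96600 and 209200 TPM in the cKO libraries. The groups overlapped in this sum, and cKO replicate 2 lay far below the other libraries. *Amelx* was by far the most abundant of the 8 markers. *Ambn*, another enamel matrix gene, had the lowest p among them, 0.0766 from limma. Of the 13 tested mesenchyme markers and the 4 tested immune markers, 0 were called, with *Col1a1* and *Lyz2* the most abundant. The lowest p from limma were 0.124 for *Pdgfra* and 0.211 for *Lyz2*.

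The genes whose pattern over the 6 libraries was most like each of the 6 were sought among at least 9148 protein-coding genes whose mean reached 5 TPM, by Pearson's r of log2(TPM + 1), as a description. With so few libraries, between 25 and 260 genes reached an r of 0.9 for a given gene. *Hey2* was most like the type I collagen genes *Col1a2* and *Col1a1*, with r of 0.989 and 0.988, and *Pdia4*, an enzyme of protein folding in the endoplasmic reticulum, with 0.972. *Col1a1* was at 3127, 1831 and 1795 TPM in the control and at 2172, 2309 and 2444 TPM in the cKO libraries. Thus *Hey2* and *Col1a1* ordered all 6 libraries in the same way, with control replicate 1 highest and control replicate 3 lowest. *Heyl* was most like *Sphk2*, *Zfp553* and *Fam234a*, with r of 0.998, 0.997 and 0.996. *Hey1* was most like *Sumf2*, *Suclg2* and *Smpd3*, with r of 0.992, 0.988 and 0.986. For *Hes1* the nearest were *Traf3ip2*, *Rpp30* and *Denr*, with r of 0.989, 0.985 and 0.976. For *Hes6* they were *Psma7*, *Fndc4* and *Eif1ad*, with r of 0.980, 0.978 and 0.952, and for *Nrarp* they were *Pla2g12a*, *Ap1s1* and *Phc2*, with r of 0.991, 0.982 and 0.976. Only 3 genes were kept for each member, so that no Notch receptor or ligand was among these 18 says nothing about their correlation. All genes of a library share its depth and base composition.

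**Figure D5:**
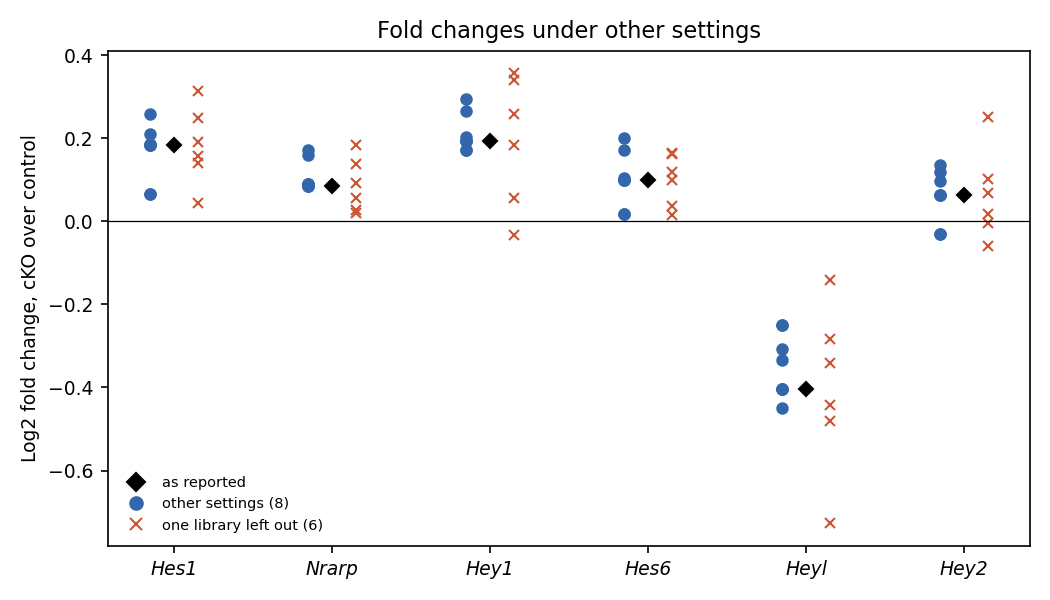
Log2 fold change of the 6 tested genes as reported (black), under 8 other settings (blue) and with each of the 6 libraries left out (red crosses). *Hes1*, *Nrarp* and *Hes6* stay above 0 and *Heyl* below 0 in every setting, and *Hey1* and *Hey2* cross 0.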

How the data were processed

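RNA was sequenced from dental epithelium in 6 libraries, grouped by the sample titles. In the table, the columns of replicates 2 and 3 of each group are numbered 3 and 4. SeqPrep and Sickle (trimming), HISAT2 (alignment) and RSEM (abundance) were run by the authors, per their methods, and the submitters' processing notes also name StringTie. The methods name FPKM, but the deposited columns are TPM, since they sum to between 983952 and 993946. Genome build, annotation and strand setting are not given in the sources used here. The GENCODE M21 annotation of GRCm38 holds 99.5% of the identifiers and was used for positions, lengths and GC content.

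From the deposited TPM, log2(TPM + 1) was fitted with limma 3.58.1 in R 4.3.3 (mean-variance trend, no block) over the 13719 genes whose mean reached 1 TPM, and p were adjusted by Benjamini-Hochberg over all of them. Single values were compared by exact permutation of 3 against 3 libraries, two-sided, whose smallest p is 0.1. Length and GC content were corrected with natural splines of 4 degrees of freedom. All 8 genes are named, with, from each gene list, its called genes or the smallest p and its most abundant gene, and the 3 genes most like each tested member. The members and gene lists were chosen with earlier results of these data known. Other genes were named after their values were seen, and some items of the lists are not reported here. The alternatives were another pseudocount, no filter, 2 other scalings, the replicate block, the length and GC correction without and with the block, no trend and leaving out each library. The alternative planned for counts was not run, because the table holds none.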

Additional observations from a re-analysis of the deposited data

How the results depend on the processing

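Of 84 log2 fold changes of the 6 tested genes under 14 alternative settings, 78 kept their direction and their side of the criteria. *Hey2* was -0.030 with the length and GC correction, without and with the replicate block. Leaving out one library at a time gave -0.06 to 0.25 for *Hey2* and -0.033 to 0.36 for *Hey1*, and without a change of sign 0.04 to 0.31 for *Hes1*, 0.02 to 0.17 for *Hes6*, 0.02 to 0.18 for *Nrarp* and -0.73 to -0.14 for *Heyl*. The number of the 6 genes called was 0 throughout, except that it ranged from 0 to 1 when libraries were left out, the 1 being *Heyl* without cKO replicate 3.

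The genes with an adjusted p below 0.05 numbered 2 from limma. They numbered 4 with a pseudocount of 0.1, quantile normalization, median-ratio scaling or the replicate block, 1 without the filter and 1 with the length and GC correction, without or with the block. Leaving out libraries gave 2 to 9. The genes under the criteria of the study numbered 552, and they numbered 940 without the filter, 1315 with the replicate block, and 1034 when the length and GC correction was added to the block. Leaving out any one of the 6 libraries moved this count by more than 1.5 times. It was 231, 347 and 1152 without control replicate 1, 2 or 3 and 195, 278 and 932 without cKO replicate 1, 2 or 3. The cause was not tested.

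The methods of the paper speak of pairs of biological replicates but do not say what paired them. The deviations of same-numbered libraries correlated at -0.08, 0.29 and 0.40 for replicates 1, 2 and 3. As these did not all lie above 0, the main fit did not take the numbers to pair the samples, and the replicate block was an alternative. With the replicate block none of the 6 genes was called, and the unadjusted p of *Heyl* from limma was 0.0854 at -0.40.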

Other observations

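The Id genes encode helix-loop-helix proteins that lack a DNA-binding region and sequester other proteins of the class. *Id1*, the most abundant gene of a list of 16 partners and targets of the Hes proteins, was at 192, 221 and 147 TPM in the control and at 258, 357 and 218 TPM in the cKO libraries. It met the criteria of the study, with a log2 fold change of 0.56, an unadjusted p of 0.0477 and an adjusted p of 1.00 from limma. The groups overlapped only in that cKO replicate 3 lay just below control replicate 2. It was the only one called of the 9 genes tested in that list, beside 1.55% of all genes called higher. *Id2* and *Id3* had log2 fold changes of 0.59 and 0.53 (limma, p of 0.141 and 0.0701 before adjustment), and *Id4* had -0.05. The neurogenic genes *Neurog1*, *Neurog2*, *Neurog3* and *Atoh1*, which Hes proteins repress in other tissues, were listed at 0 in every library.

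Of 10 genes of dividing cells, 0 were called, and 9 had log2 fold changes above 0, with a median of 0.29, whereas 60.3% of all genes tested were below 0. Their sum was 230, 238 and 145 TPM in the control and 257, 403 and 141 TPM in the cKO libraries. *Pcna*, the most abundant, was at 62.2 TPM, and *Birc5* had the smallest p, 0.144 from limma.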
